A study of Arabidopsis thaliana with 20 samples.

Results

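The third day of early flower development was examined here, as the change in transcript levels between day 2 and day 3 after flowers were induced together in Arabidopsis thaliana. Both days used plants of the genotype 35S:AP1-GR ap1 cal, treated once bolting began with 1 µM dexamethasone, and the sample of each day pooled tissue cut from the inflorescence surface of about 25 plants. The plants are mutant for AP1 and CAL, which specify floral meristems, and carry a fusion of AP1 to a glucocorticoid receptor's hormone-binding domain that the 35S promoter drives in most tissues. The mutations and the transgene are shared by day 3 and day 2, so the comparison is between 2 ages and not between mutant and wild type. Tissue was taken on days 0 to 5 in 4 sets that the study describes as biologically independent, and each two-colour array set consecutive days of 1 set side by side. The 4 arrays that compared day 3 with day 2, of 20 in all, were chosen by their titles, 1 from each set. Their values were turned so that a positive value means a higher level on day 3, and probes of 1 gene were averaged, which left 28634 features (17186 genes with 1 name and 11448 probes with none). Between 30142 and 30180 of 30194 probes had a value on each of the 4 arrays, and the precision is limited by the number of arrays. A value is a log10 ratio of day 3 over day 2, on which a 2-fold difference is about 0.3. The p-values rest on the spread between sets pooled over all 5 intervals (20 arrays), not on that of the 4 arrays alone.

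In ap1 cal plants the shoot tip keeps forming inflorescence-like meristems, and dexamethasone lets the AP1 fusion enter the nucleus, after which these meristems turn into flowers at about the same time. In a young flower the sepals appear first, followed by the petals and stamens and, in the centre, the carpels. The B3 domain proteins of the NGATHA (NGA) group, which belong to the RAV family, act together in the style and stigma of the carpels and also shape lateral organs. RABBIT EARS (RBE), a zinc finger protein, is needed for petal development. In pooled tissue, a change in the number of cells of a type and a change in the RNA of each cell cannot be told apart.

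The day 3 and day 2 array of set 3 stood apart from those of the other sets. Across the 26732 features with no value at the limit of the scale, and after the dye effect had been taken off, its correlation with the arrays of sets 1, 2 and 4 lay between -0.244 and 0.044. The pairs among sets 1, 2 and 4 reached 0.203 to 0.38, and the 24 pairs of the other 4 intervals ranged from -0.145 to 0.486, with 2 below 0. The set 3 array instead correlated at 0.269 to 0.343 with the day 2 over day 1 arrays of the other sets, with which it shares no tissue, whereas the arrays of sets 1, 2 and 4 gave -0.3 to 0.144 there. The same was seen in lists of genes: of the 100 genes lowest in day 2 over day 1 in the other sets, 95 were below 0 on the set 3 array of day 3 over day 2, with a median of -0.18, against 43 to 50 in sets 1, 2 and 4. Of the 100 highest, 98 were above 0 in set 3, with a median of 0.25, against 60 to 80 in the other sets. With day 2 over day 1 of its own set, which holds the same day 2 tissue, the set 3 array correlated at 0.551. The same pair of intervals gave -0.144, -0.0393 and 0.133 within sets 1, 2 and 4. The set 3 array also correlated at 0.453 with day 5 over day 4 of set 2, its highest value with another set. It gave 0.134 and 0.0124 with that interval in sets 1 and 4. The set 2 array of day 3 over day 2 in turn reached 0.394 with day 4 over day 3 of set 3. The cause of the set 3 pattern was not tested, and results below are given with and without the set 3 array where it matters.

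**Figure D1:**
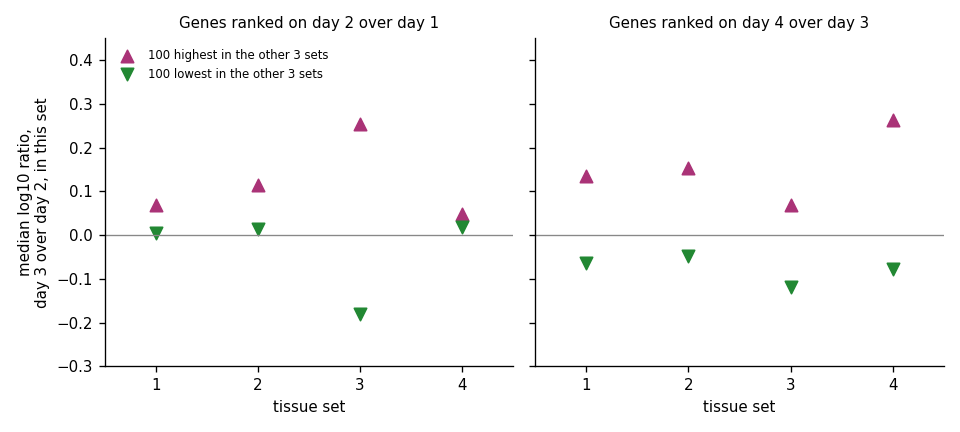
Median log10 ratio of day 3 over day 2 in each tissue set (vertical axis) for the 100 genes highest (triangles up) and the 100 genes lowest (triangles down) in an adjacent interval, ranked in the other 3 sets. In the left panel, ranked on day 2 over day 1, the medians of set 3 are 0.25 and -0.18, and those of the lowest genes are near 0 in sets 1, 2 and 4; in the right panel, ranked on day 4 over day 3, all 4 sets have medians above 0 for the highest and below 0 for the lowest genes.

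Few genes passed the test between day 2 and day 3, and most of those were higher on day 3 with the ratios read as Cy5 over Cy3. The channel order is not stated, and with the other order every sign would turn, which would leave 13 features higher and 107 lower on day 3. In limma's fit to all 20 arrays, 120 of 28634 features (0.419%) had an adjusted p under 0.05, of which 107 (0.374%) were higher and 13 (0.0454%) lower on day 3. Among the 17186 genes with 1 name, 58 passed (0.337%), 51 higher (0.297%) and 7 lower (0.0407%). The rises ranged from 1.25- to 9.63-fold, with a median of 1.92-fold, and 48 were over 2-fold. The falls ranged from 1.36- to 2.16-fold, with a median of 1.51-fold, and 1 was over 2-fold. All 120 had the same sign in every set, against 13.0% of all features, but they were picked by a test on these same values. None of the 120 had a value at the limit of the scale. At an unadjusted p under 0.05 the numbers were more even, with 1336 features higher and 1098 lower. When the set was added as a block, 57 passed in limma (0.199%; 54 higher, 0.189%, and 3 lower, 0.0105%), all of them among the 120. The number passing depended on single sets, at 24 without set 1, 0 without set 2 (1623 at an unadjusted p under 0.05), 193 without set 3 and 22 without set 4. Without the set 3 array alone it was 101 (0.353%; 87 higher, 0.304%, and 14 lower, 0.0489%), of which 69 were among the 120, that is 57.5% of these and 68.3% of the 101. The 15 largest named rises and the 7 named falls were picked for having 1 sign in every set. Their direction held with any 1 set left out, which this choice made nearly certain. Not all kept their call. Of the rises, 3, 0, 13 and 9 passed without sets 1, 2, 3 and 4. Without set 2 their adjusted p lay between 0.0582 and 0.607 in limma, with ratios of 0.32 to 0.57. Of the falls, 1, 0, 4 and 1 passed without sets 1, 2, 3 and 4.

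**Figure D2:**
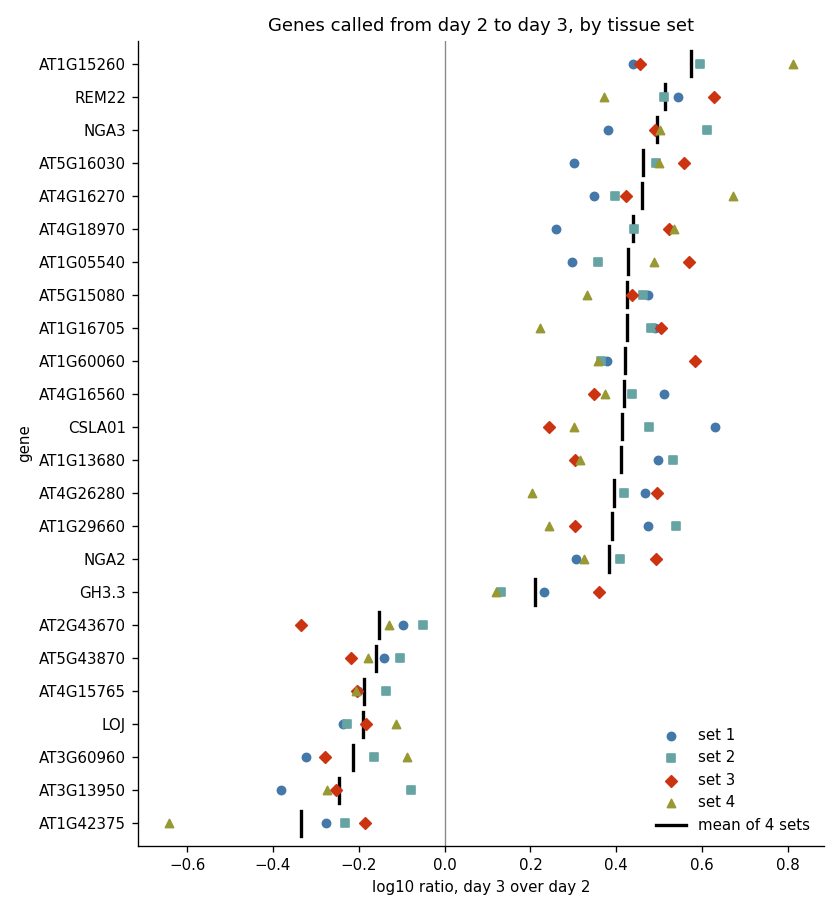
Log10 ratio of day 3 over day 2 (horizontal axis) in tissue sets 1 to 4 for the 15 largest rises among named genes, for NGA2 and GH3.3 from the gene lists, and for the 7 named genes that fell, with a black bar at the mean of the 4 sets. Every set of each rising gene lies above 0 and every set of each falling gene below 0; the highest value is that of AT1G15260 in set 4 (0.81) and the lowest that of AT1G42375 in set 4 (-0.64).

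The named B3 domain genes held 3 of the rises. Of the 6 measured members of the B3 list (4 NGA genes, REM22 and VDD), NGA3, NGA2 and REM22 rose, against 0.374% of all features. The median of all 6 was 0.29, against a median of -0.0002 over all features. The list was chosen with earlier results of these data known, so this share and median are no independent support. NGA3 (AT1G01030) had log10 ratios of day 3 over day 2 of 0.38, 0.61, 0.49 and 0.50 in sets 1 to 4. All 4 sets lay within a narrow range well above 0, with a mean of 0.50 ± 0.09 (SD, n = 4), a 3.13-fold rise (adjusted p = 9.98e-05, limma). NGA2 (AT3G61970) had 0.31, 0.41, 0.49 and 0.32, a 2.41-fold rise (adjusted p = 7.7e-04, limma). The genes had different courses around this day: NGA3 had 0.02, 0.06, 0.50, 0.43 and 0.24 in the 5 intervals from day 0 to day 5, while NGA2 had 0.11, 0.43, 0.38, 0.25 and -0.02. NGA3 therefore stood at -0.19 to 0.27 relative to day 0 on day 2, at 0.30 to 0.77 on day 3 and at 1.05 to 1.42 on day 5. NGA2 was already at 0.30 to 0.73 on day 2.

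The other NGA genes did not pass between these days. NGA1 (AT2G46870) had 0.42, 0.10, 0.17 and 0.08 in sets 1 to 4, all above 0, with set 1 far above the others and an adjusted p of 0.502 in limma. NGA4 (AT4G01500) had 0.01, 0.08, 0.11 and 0.06, close to 0 in every set (adjusted p = 0.699, limma). Its level relative to day 0 was 0.02 to 0.19 on day 3 and 0.38 to 0.57 on day 5.

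REM22 (AT3G17010), a member of the REM family of B3 proteins, had 0.54, 0.51, 0.63 and 0.37 in sets 1 to 4. Its mean of 0.51 ± 0.11 (SD, n = 4) was a 3.27-fold rise (adjusted p = 0.00456, limma). The rise followed larger changes on the days before it, with ratios of 0.61, 0.74, 0.51, 0.17 and 0.10 in the 5 intervals, and REM22 stood at 0.98 to 1.64 relative to day 0 on day 2 and at 1.60 to 2.15 on day 3. The 3 genes also passed without the set 3 array, with folds of 3.11, 2.22 and 2.89 for NGA3, NGA2 and REM22. Without set 2 none of them passed (adjusted p = 0.0582, 0.127 and 0.16, limma), and REM22 did not pass without set 1 either (adjusted p = 0.172), although the ratios moved little, to 0.46, 0.37 and 0.54 without set 2 and to 0.48 for REM22 without set 1.

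**Figure D3:**
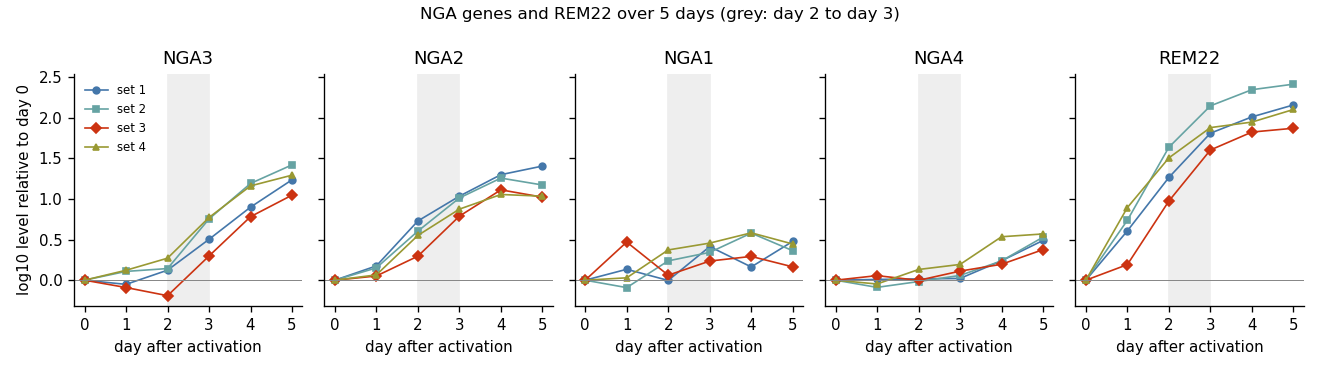
Log10 level relative to day 0 (vertical axis), summed over the ratios of each tissue set, against the day after activation for the 4 NGA genes and REM22, with the interval from day 2 to day 3 shaded grey. NGA3 is near day 0 on day 2 (-0.19 to 0.27) and higher on day 3 in every set, NGA2 and REM22 are already above day 0 on day 2, and NGA4 stays at 0.02 to 0.19 on day 3.

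Of the 30 measured cell wall genes 1 rose and none fell, against 0.374% and 0.0454% of all features. CSLA01 (AT4G16590), a cellulose synthase-like protein of the group that makes mannans, had 0.63, 0.48, 0.24 and 0.30 in sets 1 to 4. The sets were widely spread but all above 0, and the mean of 0.41 ± 0.18 (SD, n = 4) was a 2.59-fold rise (adjusted p = 0.0473, limma). CSLA01 did not pass with the set as a block (adjusted p = 0.136, limma) or without the dye coefficient (adjusted p = 0.0794, limma). At ratios of 0.37 to 0.43, it did not pass without set 1, 2 or 4 either. XTH19 (AT4G30290), a xyloglucan-modifying enzyme, had 0.47, 0.17, 0.15 and 0.18, all above 0 with set 1 well above the rest, and missed the threshold (adjusted p = 0.0506, limma). Without the set 3 array its ratio was 0.29 and it passed (adjusted p = 0.0461, limma). The expansins and the other members of the list had smaller ratios, and the median of the list was 0.01.

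Of the 18 measured auxin genes 1 rose and none fell, against the same 0.374% and 0.0454%. GH3.3 (AT2G23170), which joins auxin to amino acids, had 0.23, 0.13, 0.36 and 0.12, with the highest value in set 3. Its 1.62-fold rise (adjusted p = 0.0127, limma) did not pass with the set as a block (adjusted p = 0.0577), without the dye coefficient (adjusted p = 0.351) or without the set 3 array (adjusted p = 0.0709). The other measured GH3 genes had ratios between -0.14 and 0.003. WAG2, a protein kinase that acts on auxin transport proteins, had -0.10, -0.17, -0.23 and -0.19, below 0 in every set, and missed the threshold (adjusted p = 0.0989, limma).

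No gene of the petal and early primordium list (7 measured) or of the organ growth and polarity list (7 measured) passed, with medians of -0.002 and 0.06. RBE (AT5G06070) had -0.08, 0.04, 0.20 and -0.105 in sets 1 to 4, on both sides of 0. This interval lay at the turn of its course: the ratios were 0.52, 0.58, 0.02, -0.17 and -0.29 in the 5 intervals, and in limma the first, the second and the last of these passed (adjusted p = 4.01e-05, 1.59e-04 and 0.016). PUCHI (AT5G18560), an AP2-type factor of early flower primordia, had 0.27, -0.02, -0.38 and -0.12 from day 2 to day 3, against -0.60, -0.51, -0.38 and -0.41 from day 1 to day 2. Its sets were spread on both sides of 0 on the later interval, with set 3 at the same value on both. The mean ratios of RBE and PUCHI, 0.02 and -0.07, turned to -0.06 and 0.07 without the set 3 array.

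On the organ growth and polarity list, YAB3, JAG and PHV had ratios above 0 in every set, and none of the 7 measured genes passed. YAB3, a YABBY protein of the lower organ side, had 0.12, 0.29, 0.37 and 0.20 (adjusted p = 0.0664, limma). JAG, a zinc finger protein that promotes organ growth, had 0.12, 0.07, 0.22 and 0.13 (adjusted p = 0.356), and PHV, a homeodomain protein of the upper organ side, had 0.05, 0.03, 0.30 and 0.17 (adjusted p = 0.278). Among these 3 genes the set 3 value was the highest of the 4 sets. Without the set 3 array the ratios were 0.20, 0.12 and 0.08 for YAB3, JAG and PHV. The other members lay on both sides of 0: beside RBE, YAB5 had -0.18, 0.01, 0.08 and 0.01, ARL had 0.24, 0.11, -0.15 and 0.05, and CYP78A9 had 0.02, -0.01, 0.03 and -0.11 in sets 1 to 4.

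Genes of the inflorescence and of flowering time (9 measured) had a median of -0.03, and none passed. Of the 6 MADS genes measured on the list, AGL72 had -0.13, -0.07, -0.28 and -0.09, AGL71 had -0.10, -0.11, -0.23 and -0.06, and AGL24 had 0.03, 0.03, -0.39 and -0.12. AGL42 had -0.04, 0.09, -0.34 and 0.04, AGL18 had -0.05, 0.07, -0.12 and -0.04, and AGL19 had -0.003, -0.02, -0.08 and -0.01. Set 3 was the lowest of the 4 sets in all 6 MADS genes. Without its array the ratios were -0.12 for AGL72, -0.09 for AGL71, -0.02 for AGL24, 0.01 for AGL42, -0.01 for AGL18 and -0.0005 for AGL19. Of the 9 measured genes, 3 had ratios above 0, among them SNZ and FD. SNZ had 0.26, 0.003, 0.24 and -0.09 (adjusted p = 0.107, limma), and FD had 0.20, -0.01, 0.002 and -0.11. In neither was set 3 the lowest. Of the 3 measured meristem and boundary genes none passed, and their ratios lay between 0.003 and 0.06. The meristem marker CLV3, the signal peptide made at the shoot tip, had 0.02, 0.07, -0.13 and 0.06, with set 3 the lowest. LAS had 0.14, -0.03, 0.24 and -0.10, with set 3 the highest.

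**Figure D4:**
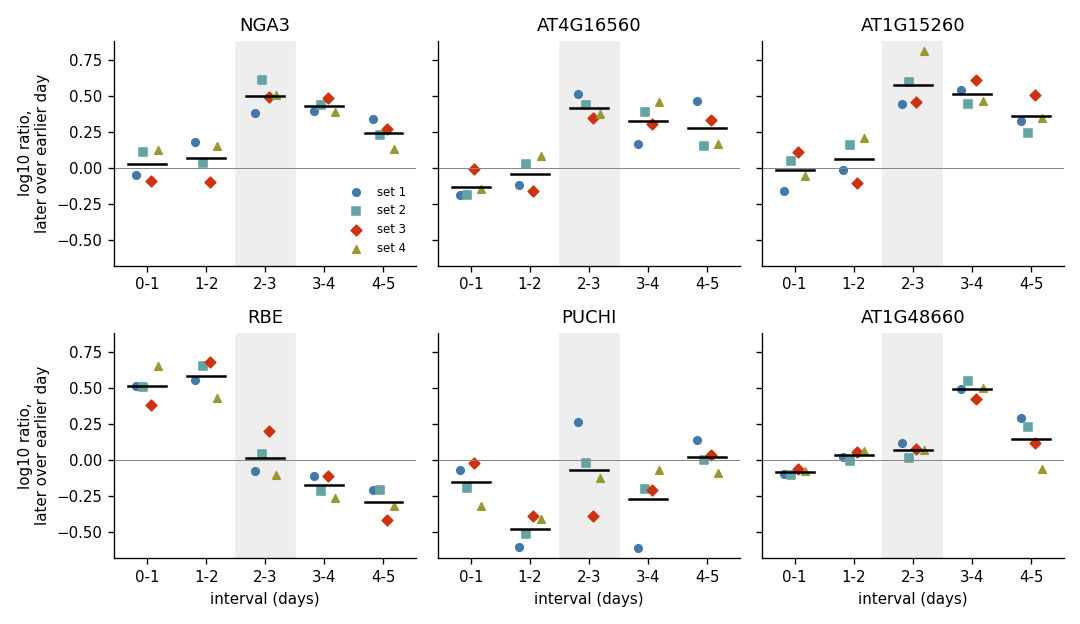
Log10 ratio of the later over the earlier day (vertical axis) in the 5 intervals from day 0 to day 5 for 6 genes, with 1 point per tissue set, a black bar at the mean and the interval from day 2 to day 3 shaded grey. NGA3, AT4G16560 and AT1G15260 have means near 0 before the shaded interval and lie above 0 in all sets within it, RBE is above 0 before it and near 0 within it, PUCHI is spread from -0.38 to 0.27 within it, and AT1G48660 is near 0 until the next interval.

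Beside these, the largest rises among named genes belonged to loci with no gene symbol in the annotation used here. AT1G15260 had 0.44, 0.59, 0.46 and 0.81 in sets 1 to 4, with set 4 well above the rest, and its mean of 0.58 ± 0.17 (SD, n = 4) was a 3.76-fold rise (adjusted p = 4.8e-04, limma). Its ratios over the 5 intervals were -0.02, 0.06, 0.58, 0.51 and 0.36, so that, as with NGA3, the values before day 2 were near 0 and those after it above 0. AT4G16560 had 0.51, 0.44, 0.35 and 0.37, a 2.61-fold rise (adjusted p = 9.98e-05, limma), after -0.13 and -0.04 in the intervals before and with 0.32 and 0.28 in those that followed. AT1G13680, with 0.50, 0.53, 0.30 and 0.32 in sets 1 to 4, rose 2.58-fold (adjusted p = 0.00157, limma). It had 0.28 from day 1 to day 2 and 0.12 from day 3 to day 4. AT4G26280 had 0.47, 0.42, 0.50 and 0.20 and rose 2.49-fold (adjusted p = 0.00315, limma).

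The other loci among the 15 largest rises were AT5G16030, AT4G16270, AT4G18970, AT1G05540, AT5G15080, AT1G16705, AT1G60060 and AT1G29660, whose folds lay between 2.46 and 2.90 with every set above 0.2. AT5G15080, with 0.47, 0.46, 0.44 and 0.33, had close values in the 4 sets. It did not pass with the set as a block (adjusted p = 0.0844, limma) or without the dye coefficient (adjusted p = 0.0584, limma). AT1G29660 did not pass with the set as a block either (adjusted p = 0.0559, limma). AT4G18970, AT1G60060 and AT5G15080 missed the threshold without the set 3 array (adjusted p = 0.0548, 0.0553 and 0.0622, limma), with folds of 2.57, 2.27 and 2.81.

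A few called genes outside the largest 15 carry a symbol and are named after their values were seen. GSTU26, a glutathione transferase, had 0.20, 0.33, 0.28 and 0.30 and rose 1.89-fold (adjusted p = 0.00424, limma). The serine carboxypeptidase-like genes scpl35 and scpl20 rose 2.27- and 1.72-fold (adjusted p = 0.0105 and 0.00564, limma), with 0.14, 0.31, 0.41 and 0.56 in sets 1 to 4 for scpl35 and 0.12, 0.28, 0.28 and 0.27 for scpl20. Without the set 3 array scpl35 did not pass (adjusted p = 0.0622, limma). MSRB9, a methionine sulfoxide reductase, had 0.26, 0.32, 0.28 and 0.25, close in all sets, and rose 1.89-fold (adjusted p = 0.0458, limma). It did not pass with the set as a block (adjusted p = 0.0577, limma), without the dye coefficient (adjusted p = 0.063) or without the set 3 array (adjusted p = 0.105).

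The falls were few and small. AT1G42375 had -0.28, -0.23, -0.19 and -0.64 in sets 1 to 4, with set 4 far below the others, and fell 2.16-fold (adjusted p = 0.0172, limma). In the other 4 intervals its ratio lay between -0.03 and 0.13. AT3G60960 had -0.32, -0.16, -0.28 and -0.09 (1.63-fold, adjusted p = 0.00455, limma), and it had also fallen from day 1 to day 2, with a ratio of -0.21 (adjusted p = 0.00343). LOJ (AT2G39230), LATERAL ORGAN JUNCTION, had -0.24, -0.23, -0.18 and -0.11 (1.55-fold, adjusted p = 0.0357, limma), and its ratios in the other 4 intervals were between -0.06 and 0.001. It did not pass with the set as a block (adjusted p = 0.0736) or without the set 3 array (adjusted p = 0.0873). AT4G15765 had -0.20, -0.14, -0.20 and -0.21, nearly the same in sets 1, 3 and 4, and fell 1.54-fold (adjusted p = 0.00885, limma). It did not pass without the dye coefficient (adjusted p = 0.0559, limma). The other 3, AT3G13950, AT5G43870 and AT2G43670, fell 1.77-, 1.45- and 1.42-fold. They did not pass with the set as a block (adjusted p = 0.102, 0.129 and 0.119, limma) or without the dye coefficient (adjusted p = 0.548, 0.0635 and 0.188, limma). In AT2G43670 the set 3 value of -0.34 was the lowest, against -0.10, -0.05 and -0.13 in sets 1, 2 and 4, and without the set 3 array it and AT5G43870 did not pass (adjusted p = 0.157 and 0.17).

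Of the 120 features, 62 were probes with no gene name, 56 higher and 6 lower on day 3, and 7 of the 10 rises over 3-fold were among them. The probe A019543_01 had 0.88, 0.85, 0.99 and 1.21 in sets 1 to 4, the largest rise on the arrays at 9.63-fold (adjusted p = 2.95e-04, limma). It had -0.19 and 0.04 in the intervals before and 0.80 and 0.19 in those after. The probe A008961_01 had 0.76, 0.88, 0.61 and 0.65, a 5.31-fold rise (adjusted p = 2.74e-05, limma), with -0.04 and 0.07 before and 0.45 and 0.05 after. For both probes every set lay far above 0.

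To ask what set the third day apart, its change was tested against that of the interval before and of the interval after, within the same limma fit. Since day 2 tissue of a set is part of both day 3 over day 2 and day 2 over day 1, the compared ratios are not independent. Against day 2 over day 1, 5 features differed (0.0175%), 4 of them higher (0.014%) and 1 lower (0.00349%) in day 3 over day 2. The named ones were AT4G16560, with a difference of 0.46 (adjusted p = 0.00779), NGA3, with 0.43 (adjusted p = 0.0465), and RBE, with -0.57 (adjusted p = 0.00988), and the others were the probes A008961_01 and A019543_01. NGA3 had 0.38, 0.61, 0.49 and 0.50 from day 2 to day 3, against 0.17, 0.03, -0.10 and 0.15 from day 1 to day 2, and AT4G16560 had 0.51, 0.44, 0.35 and 0.37, against -0.12, 0.03, -0.16 and 0.08. RBE had -0.08, 0.04, 0.20 and -0.105, against 0.56, 0.66, 0.68 and 0.43. In all 3 genes the 4 sets of one interval did not overlap those of the other. The genes were picked for this same difference, so that is no separate support. With the set as a block none passed (adjusted p = 0.0554 for AT4G16560, 0.194 for NGA3 and 0.0554 for RBE, limma; 1963 features at an unadjusted p under 0.05), and from the differences within each set none passed either (adjusted p = 1 for the 3 genes; 1193 features unadjusted).

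Leaving out the set 3 array changed this comparison: 123 features then differed from day 2 over day 1 in limma (0.43%), 95 higher (0.332%) and 28 lower (0.0978%), including all 5. Of the 95, 89 had a ratio below 0 from day 1 to day 2, with a median of -0.19, and their median from day 2 to day 3 was 0.16 over sets 1, 2 and 4 and -0.09 in set 3, where 68 of 95 were below 0. Of the 28, the median was 0.26 from day 1 to day 2, -0.10 from day 2 to day 3 in sets 1, 2 and 4, and 0.10 in set 3, where 23 were above 0. The set 3 array of day 2 over day 1, which uses the same day 2 tissue, stayed in that fit, so the set 3 values are not independent of how these features were found.

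Against day 4 over day 3, 2 features differed (0.00698%), both lower in day 3 over day 2 (none higher, 0.0%). AT1G48660 had 0.12, 0.02, 0.08 and 0.07 from day 2 to day 3, against 0.50, 0.55, 0.42 and 0.50 from day 3 to day 4. The difference was -0.42 (adjusted p = 0.0203, limma). Its sets did not overlap, but the gene was picked for this same difference. The other was the unnamed probe A025397_01. Neither passed with the set as a block (adjusted p = 0.0696 for AT1G48660, limma; 1800 features at an unadjusted p under 0.05) or from differences within each set (735 unadjusted), and without the set 3 array 3 features passed (0.0105%).

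Few genes of the lists passed on this day. Of 170 distinct genes measured in 25 lists, 5 rose (2.94%, against 0.374% of all features) and none fell in limma, and these were NGA3, NGA2, REM22, CSLA01 and GH3.3. The carpel and ovule list held 2 of them (NGA3 and NGA2, of 14 measured), with a median of 0.05. The share rests on lists chosen with earlier results of these data known. In 14 lists with 3 or more measured genes none passed, and their medians lay between -0.04 and 0.14. The 13 measured cell cycle genes had a median of 0.01, the 10 DNA replication and histone genes -0.04, the 15 photosynthesis genes 0.02, and the 8 cytokinin response regulators 0.01. Markers of other tissue were also near 0, with SWEET11 of the phloem at -0.01, RCA of green tissue at 0.01, and the anther regulators SPL and AMS at 0.04 and -0.01. The 7 measured stamen and anther genes lay between -0.096 and 0.039, and 1 was lower at an unadjusted p under 0.05 in limma. Of the 3 measured stomatal lineage genes, MUTE had 0.29, 0.002, -0.05 and 0.50, on both sides of 0. FMA had 0.05, 0.235, 0.14 and 0.14, above 0 in every set, and did not pass (adjusted p = 0.882, limma). That p-value uses the spread over all 5 intervals, and in day 4 over day 3 the set 3 value of FMA was at the scale limit of 2. STOMAGEN had -0.04, 0.685 and -0.647 in sets 1, 3 and 4 and no value in set 2. Of the 4 measured genes on the list named reference genes, ACT11 had 0.21, 0.16, 0.40 and 0.09 (adjusted p = 0.0599, limma). Its ratios in the other 4 intervals lay between 0.006 and 0.18, so it is not taken here as a level control. The other 3 had ratios between -0.07 and 0.001 from day 2 to day 3. The heat shock and jasmonate lists had no measured gene.

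**Figure D5:**
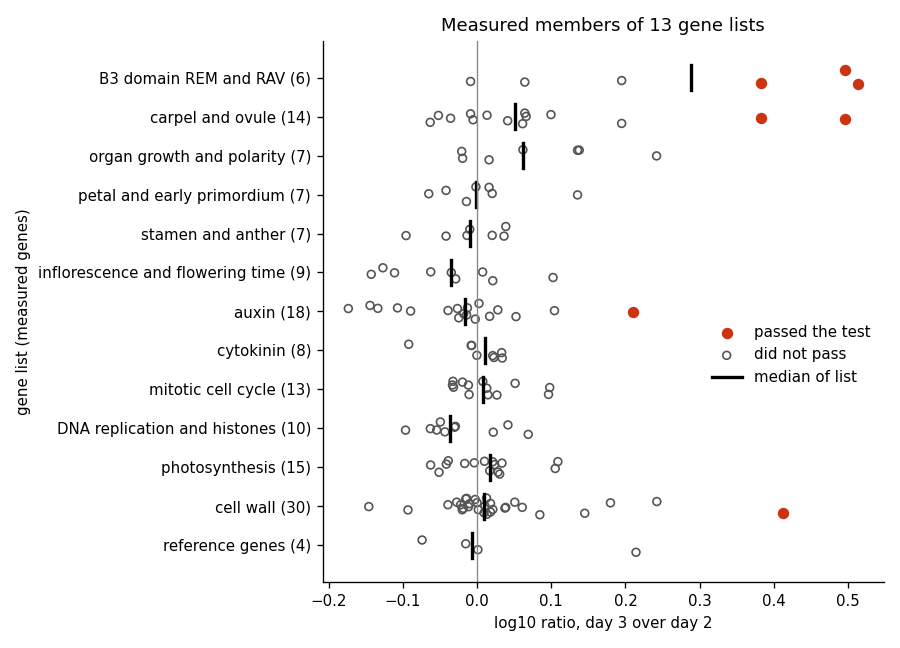
Log10 ratio of day 3 over day 2 (horizontal axis) for the measured members of 13 gene lists. Filled red points are genes that passed the test and open points those that did not. A black bar marks each list's median, and the number of measured genes is in brackets. Some genes, among them NGA genes, appear in 2 lists. The B3 list has the median farthest from 0 (0.29), and the medians of the other 12 lists lie between -0.04 and 0.06.

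The genes that changed between day 2 and day 3 were set beside the intervals that share no tissue with it. All intervals use the same estimate of each feature's spread, so a feature with a small spread passes more easily in each. The shared calls are therefore not independent. Of the 120 features, 29 also passed in day 1 over day 0 (24.2% of the 120 and 3.05% of the 950 that passed there, which are 3.32% of all features, 1.15% higher and 2.17% lower). Of the 107 that rose by day 3, 11 had risen and 15 had fallen from day 0 to day 1, and of the 13 that fell, 3 had risen. In day 5 over day 4, 11 features passed as well (9.17% of the 120 and 5.07% of the 217, which are 0.758% of all features, 0.562% higher and 0.196% lower), all higher in both. The median ratio of the 107 was -0.04 from day 0 to day 1 and 0.03 from day 4 to day 5.

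For some genes the probes did not give the same value. AT3G15351, a called gene, had a mean of 0.455 over the sets for one probe and -0.002 for the other, so that its 1.68-fold rise rests on a single probe, and it did not pass with the set as a block (adjusted p = 0.148, limma). AT2G18670 had 4 probes with means between 0.01 and 0.20. The ovule gene INO had 3 probes with means of 0.13, -0.03 and 0.19, and did not pass as an average (adjusted p = 0.354, limma). The 2 probes of YAB3 were closer, at 0.26 and 0.22.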

How the data were processed

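The authors deposited 1 log ratio per probe and array, read here as log10 because every array stops at exactly 2 and -2 (100-fold). Per the labels, mRNA was amplified in vitro and the product dyed with Cy3 or Cy5, dyes being swapped between sets. For background correction, normalization and genome build, the sources used here give nothing. The channel order is not stated either: values were taken as Cy5 over Cy3 and turned to day 3 over day 2 in sets 2 and 4, so every direction is likely rather than settled. Arrays of the same interval and opposite dyes had a median correlation of 0.0622 as deposited (12 of 20 above 0) and -0.308 after each feature's mean was subtracted (2 of 20 above 0). On the arrays of this interval 562 to 780 probes had the highest value the scale allows and 1 to 5 the lowest; they were kept.

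Of 30741 spots, 547 control or unannotated ones were left out. Of the other 30194 probes, the platform annotation gave 18740 a single gene name, 1 several and 11453 none; 18645 matched the RefSeq gene table of TAIR10.1, used for names alone, and 95 kept the older name. Probes of 1 gene were averaged (1428 genes), and a feature needed 3 of 4 arrays in every interval. limma 3.58.1 in R 4.3.3 fitted 5 interval coefficients and 1 dye coefficient to the 20 arrays (14 residual and 2.07 prior degrees of freedom), with two-sided tests and Benjamini-Hochberg adjustment over all features at 0.05. A set holds the same independent tissue samples on successive arrays, so the set was also fitted as a block. On simulated data for day 3 over day 2 with 28634 features, the fit called 44%, 76%, 96% and 94% of 50 features each changed 1.5-, 2-, 3- and 5-fold, with 6 false calls. The simulated noise was independent between arrays, with no shared tissue, set effect or deviating array, so these rates may not hold for the real data.

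The genes named are the 15 largest rises and all falls among named genes that passed with 1 sign in every set, every list member that passed, and the named genes that differed from an adjacent interval; other list members are given as values. The genes, lists and tests were chosen with earlier results of these data known. Promoter sequences were not used here. Other settings tried were the set as a block, no dye coefficient, scaled arrays, limit values left out, a robust prior, each set left out, other filters on missing values, single probes, the 4 arrays alone, differences within sets and, chosen after seeing the data, the set 3 array left out.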

Additional observations from a re-analysis of the deposited data

Results flagged for a closer look

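In 62 groups of 4 sets examined for a set far from the others, 6 were found, and chance gives about 1 in 20. AT1G16705 had 0.22 in set 4, against 0.48 to 0.50 in sets 1 to 3. AT1G60060 had 0.585 in set 3, against 0.36 to 0.38 in the other sets. AT4G15765 had -0.137 in set 2, against -0.20 to -0.21 in the others. XTH19 had 0.473 in set 1, against 0.15 to 0.18 in the others. The remaining 2 belong to the set 3 array: among the 100 genes lowest in day 2 over day 1 in the other sets, its median was -0.181 and 95 were below 0.

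The change of 4 named genes differed from that of an adjacent interval by limma's test of the difference. The differences in log10 ratio were 0.462 for AT4G16560, 0.431 for NGA3 and -0.567 for RBE against day 2 over day 1, and -0.418 for AT1G48660 against day 4 over day 3. None of the 4 passed with the set as a block.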

How the results depend on the processing

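None of the 28 values of genes that passed changed its sign under any setting tried. They were picked because they passed, so a kept sign is no separate support. Against 120 features passing between day 2 and day 3, the number was 57 with the replicate block, 6 in a fit to the 4 arrays alone (all lower, none of them among the 120; 2229 at an unadjusted p under 0.05), and 0 to 193 with 1 set left out. For the difference from day 2 over day 1 (5 features), the numbers were 0 with the replicate block, 2 without the dye coefficient, 1 with scaled arrays, 14 with limit values left out, 0 from differences within sets, 123 without the set 3 array and 0 to 144 with 1 set left out. For the difference from day 4 over day 3 (2 features), they were 0 with the replicate block, 1 with scaled arrays, 0 from differences within sets and 0 to 2 with 1 set left out. Of the 28 values, 16 kept their side of the threshold with the replicate block, 21 with scaled arrays, 19 without the dye coefficient, 5, 0, 20 and 12 without sets 1 to 4, and 21 without the set 3 array; in the 4 arrays alone 0 of 24 did. All 28 did with limit values left out, a robust prior and either filter on missing values. Single probes gave 123, 6 and 2 features. Signal over background is unknown, so dim probes could not be set aside.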

Other observations

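MSRB9 and AT3G58210, 2 called genes looked at after their values were seen, gave nearly the same value on every array of the series. Over 20 arrays their log10 ratios differed by a median of 0.014 and by at most 0.059, while those of MSRB9 ranged from -0.39 to 0.68. From day 2 to day 3 AT3G58210 had 0.29, 0.33, 0.31 and 0.24 in sets 1 to 4 (adjusted p = 0.0309, limma), and it did not pass with the set as a block (adjusted p = 0.0532) or without the set 3 array (adjusted p = 0.0851). Whether the probes share a sequence was not tested.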
